A study of Homo sapiens with 4 samples.

Results

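The cell cycle and replication genes described here are a set of 58 genes that drive or mark cell division, chosen by name. They were grouped by role into 16 regulators of the step from G1 to S phase, 16 genes of DNA replication, 23 genes of G2 and mitosis, and 3 inhibitors of cyclin-dependent kinases. A gene was found through the array annotation and represented by its brightest probe set, a group of short probes that reads 1 transcript region, by the mean of the 4 arrays. This gave a value for 57 of the 58 genes, out of 19777 named genes on the array. All 57 passed the filter on low levels. CDKN2C was not analysed here. The comparison was between arrays of CD133+ cells (2 arrays) and CD133- cells (2 arrays) of SW620, a human colon cancer line from ATCC. CD133 is a surface protein encoded by PROM1. Both groups came from the same parental line: cells were sorted on magnetic beads, grown from single cells, expanded under the same culture conditions and sorted once more. Each group is 1 clone (CPC1 for CD133+ and CNC1 for CD133-), so an effect of the clone and an effect of CD133 cannot be told apart. Nothing in the labels states that a clone was cultured separately for each array. The spread that the p-values measure is thus that between these arrays alone and may be technical.

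Division is timed by cyclins, which rise and fall and activate cyclin-dependent kinases. D-type and E-type cyclins lead to phosphorylation of RB1 and release E2F transcription factors, which switch on the genes that license and copy DNA. Cyclin B with CDK1, activated by CDC25 phosphatases, then drives entry into mitosis, and many G2 and mitosis genes are repressed in resting cells through the DREAM complex.

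PROM1, the sorted antigen, checks the labels: its log2 signal was 8.46 and 8.73 in CD133+ cells, against 3.31 and 3.35 in CD133- cells. The deposited array medians ran from 4.45 to 4.60, and the values were quantile normalized, so that all arrays share 1 distribution. CD133- replicate 1 had the highest deposited upper quartile (6.91, against 6.61 to 6.71 on the others), and CD133+ replicate 2 the largest difference between 3' and 5' control probe sets of ACTB (1.92, against 0.71 to 1.18), a sign of RNA length. For GAPDH that difference was larger in both CD133+ arrays (0.097 and 0.090) than in the CD133- arrays (0.017 and 0.026). Of 11 epithelial and colon markers none passed, and KRT8, KRT18, KRT19, CDH1 and EPCAM all had mean log2 signals above 11 in both clones. VIL1 had 10.18 in CD133+ and 10.54 in CD133- cells. The other colon markers, CDH17, CDX1, CDX2, GPA33 and LGALS4, were lower, with clone means from 4.68 to 7.30. Of the fibroblast (6 measured), leukocyte (4) and endothelial (4) markers, 3 lay below the filter on low levels and none of the others passed. Their part in the results below was not tested.

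Few of these genes passed the test. At a limma adjusted p under 0.05, 2 of 57 members fell in CD133+ cells and 0 rose, or 3.51%, against 3.65% of all 15821 genes tested. By direction, 2.34% of all genes were lower and 1.31% higher. The members that fell were CCNB1, cyclin B1, and CDC25B, a phosphatase that activates CDK1. At an unadjusted p under 0.05 there were 12 members (21.1%), against 20.6% of all genes. The calls of CCNB1 and CDC25B were lost when either CD133- array was left out, but fewer genes of the whole array passed as well. With replicate 1 of that clone dropped, CCNB1 was at -0.50 and CDC25B at -0.58. With its replicate 2 dropped, they were at -0.53 and -0.43. The share called among the members was close to that of the array as a whole. In 35 of 57 members the arrays of the clones did not overlap (61.4%), against 51.6% of all genes. Both CD133+ arrays lay below in 21 members (36.8%, against 21.2% of all genes) and above in 14 (24.6%, against 30.4%). With 2 arrays per group the smallest p of an exact permutation test (two-sided) is 0.333, so each call leans on variance estimates moderated over all genes by limma.

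For 55 of the 57 members the 95% interval of the brightest probe set's difference lay within 1 log2 unit, a 2-fold change, in either direction. The exceptions were CCNE2, with an interval from -1.28 to -0.071, and RBL1, from -1.10 to 0.22. Dimmer probe sets are not covered by these intervals. Some of them lay near or beyond 1 log2 unit, for CCNB1 at -1.28 (SE 0.18), BIRC5 at 1.01 (SE 0.34) and CDC25A at -0.99 (SE 0.32). The 55 members that did not pass had log2 differences (CD133+ minus CD133-) from -0.68 to 0.47. The median over all 57 was -0.016, against 0.058 over all genes tested.

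**Figure D1:**
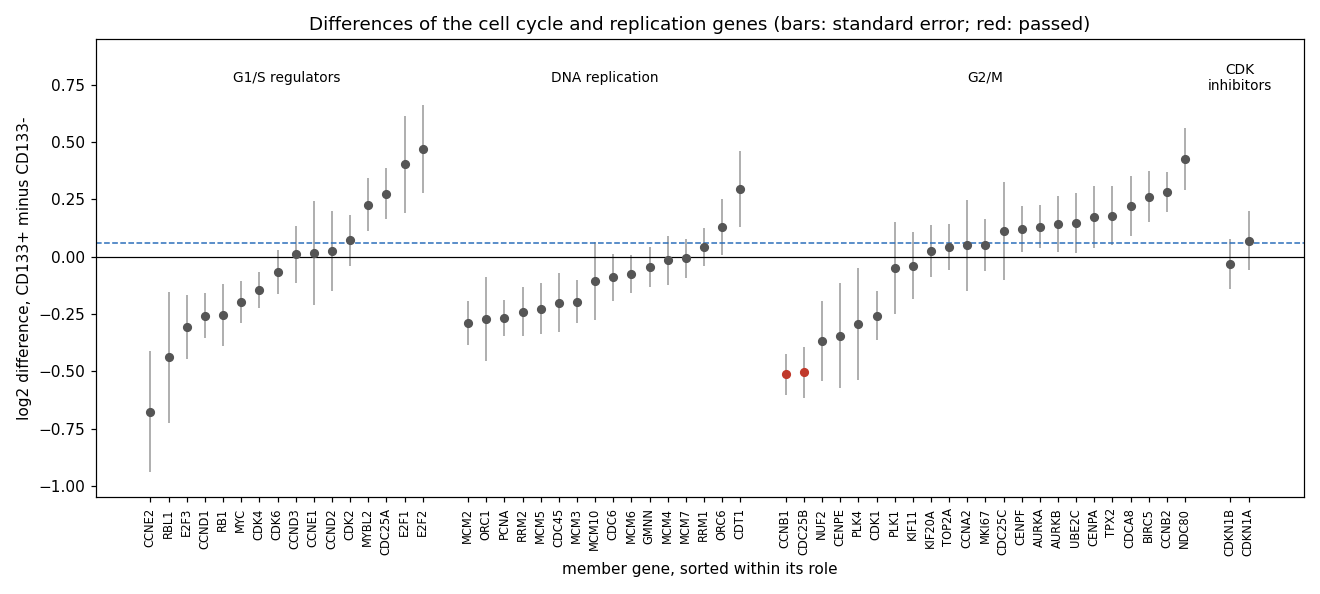
Log2 difference (CD133+ minus CD133-) of each of the 57 measured members, sorted within its role, with standard errors as bars; the dashed line is the median of all genes tested, 0.058. CCNB1 at -0.51 and CDC25B at -0.50, in red, passed, and most of the replication genes lie below 0.

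Among the mitotic cyclins, CCNB1 stood apart from its paralog CCNB2. CCNB1, the cyclin that carries CDK1 into mitosis, had log2 signals of 10.48 and 10.32 in CD133+ cells, against 10.93 and 10.90 in CD133- cells. Both CD133+ arrays lay below both CD133- arrays, by more than the replicates differed. The means were 10.40 ± 0.11 (SD, n = 2) and 10.91 ± 0.020 (SD, n = 2). CCNB1 was thus 1.43-fold lower, its log2 difference being -0.51 (SE 0.090, adjusted p = 0.0231 by limma). CCNB1 did not pass without CD133- replicate 1 (limma adjusted p = 0.167, difference -0.50), without CD133- replicate 2 (0.0699, difference -0.53) or with a variance prior that ignores level (0.145). The dimmer probe set of the same gene gave 7.57 and 8.02 in CD133+ cells, against 9.18 and 8.96 in CD133- cells. Its difference was larger, -1.28 (SE 0.18), and it was the only 1 of 119 member probe sets past the threshold when all named probe sets were fitted one by one (limma adjusted p = 0.0427). In that fit the brighter probe set did not pass (limma adjusted p = 0.0695).

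CCNB2, a B-type cyclin that is found at the Golgi apparatus, went the other way without passing, with signals of 10.53 and 10.55 in CD133+ cells, against 10.31 and 10.21 in CD133- cells and a difference of 0.28 (SE 0.088, adjusted p = 0.125 by limma). All 3 of its probe sets had this sign. Within each array, CCNB1 minus CCNB2 was -0.058 and -0.23 in the CD133+ clone and 0.62 and 0.69 in the CD133- clone. With CCNB1 below and CCNB2 above on both CD133+ arrays, these contrasts could not overlap and give no further support. Since probe sets differ in brightness, only the change of such a contrast between arrays can be read, not its level.

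CDK1, the kinase bound by both cyclins, had signals of 10.83 and 10.56 in CD133+ cells, against 11.01 and 10.89 in CD133- cells, and the clones did not overlap. The difference was -0.26 (SE 0.11, adjusted p = 0.223 by limma). Of its 4 probe sets 3 had a negative sign. Without CD133+ replicate 1 it passed at -0.39 (adjusted p = 0.0457), and without CD133+ replicate 2 it was -0.12 (adjusted p = 0.635). CCNA2, the cyclin of S phase and G2, overlapped between clones, with 7.94 and 7.83 against 8.13 and 7.54 and a difference of 0.049 (SE 0.20), a sign that its other probe set did not share.

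**Figure D2:**
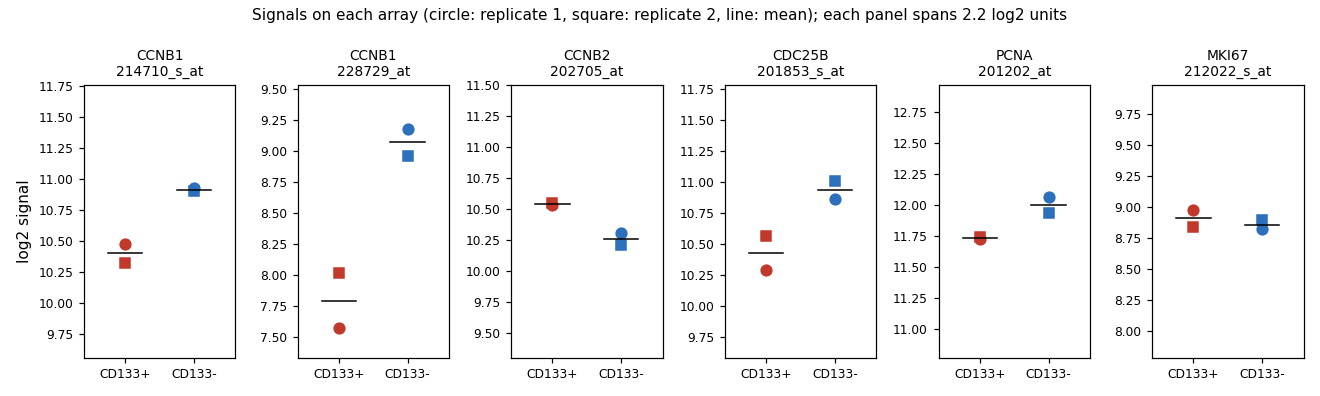
Log2 signals on each array for both probe sets of CCNB1 and the brightest probe sets of CCNB2, CDC25B, PCNA and MKI67; red is CD133+, blue is CD133-, circles are replicate 1, squares replicate 2 and lines group means, and each panel spans the same range. CCNB1 and CDC25B lie lower on both CD133+ arrays, CCNB2 lies higher, and MKI67 overlaps.

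The promoters of the B-type cyclins are shown because their signals differed in opposite directions between the clones. Sequences are from RefSeq (GRCh38.p14) and give the 250 bases before the annotated start, 5′ to 3′ on the gene's strand. Capitals mark CCAAT, the box bound by NF-Y, and TTTGAA or TTCGAA, the core letters of the cell cycle homology region read by the DREAM complex, on either strand.
CCNB1, chr5:69166900-69167149, plus strand: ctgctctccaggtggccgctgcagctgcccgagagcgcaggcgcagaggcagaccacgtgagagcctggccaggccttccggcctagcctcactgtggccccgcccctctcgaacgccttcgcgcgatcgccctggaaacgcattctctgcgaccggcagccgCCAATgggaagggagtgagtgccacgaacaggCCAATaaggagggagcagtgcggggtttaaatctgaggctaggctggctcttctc
CCNB2, chr15:59104896-59105145, plus strand: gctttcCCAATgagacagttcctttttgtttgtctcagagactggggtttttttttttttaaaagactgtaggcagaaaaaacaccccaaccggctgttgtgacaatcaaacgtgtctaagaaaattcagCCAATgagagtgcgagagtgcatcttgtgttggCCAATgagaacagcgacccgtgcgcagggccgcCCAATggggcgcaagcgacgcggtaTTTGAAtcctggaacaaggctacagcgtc
The CCNB1 window held 2 CCAAT boxes and 0 matches to TTTGAA or TTCGAA, and the CCNB2 window held 4 and 1. Of the 57 measured members, 46 had promoter windows in the table, 67 windows in all. CCAAT stood in 20 of 29 windows of the G2 and mitosis genes (69.0%), 17 of 21 of the replication genes (81.0%) and 5 of 15 of the G1/S regulators (33.3%), against 32.0% of all 35116 windows. TTTGAA or TTCGAA stood in 11 of 29 windows of the G2 and mitosis genes (37.9%), against 14.3% of all. E2F letters (TTTGGCGC, TTTCGCGC, TTTCCCGC or TTTGCCGC, either strand) stood in 5 of 15 G1/S windows (33.3%) and 6 of 21 replication windows (28.6%), against 2.79% of all. No motif searched lies within another. These shares describe letters in the windows and were not tested, and a window without a match says only that these letters are not in it.

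CDC25B, the phosphatase that starts CDK1 activation at the centrosome, was the second member to fall, with signals of 10.29 and 10.56 in CD133+ cells, against 10.86 and 11.00 in CD133- cells. The clones did not overlap, although the CD133+ arrays lay 0.27 apart. Its difference of -0.50 (SE 0.11) passed only just, at a limma adjusted p of 0.04998, and the call was lost when any array other than CD133+ replicate 2 was left out (0.0653 to 0.142), with no filter on level (0.0534) and with a variance prior that ignores level (0.180). The gene had 1 probe set. Its relatives did not pass: CDC25A, which acts at the start of S phase, was at 0.27 (SE 0.11), and CDC25C, which acts in mitosis, at 0.11 (SE 0.21). CDC25A minus CDC25B within an array was -0.74 and -1.03 in the CD133+ clone and -1.70 and -1.63 in the CD133- clone. CDC25A lay above and CDC25B below on both CD133+ arrays, so this contrast had to separate.

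Neither of the common markers of dividing cells passed. MKI67, the Ki-67 antigen, had 8.98 and 8.84 in CD133+ cells, against 8.82 and 8.90 in CD133- cells, with overlapping clones and a difference of 0.051 (SE 0.11, adjusted p = 0.834 by limma) whose sign turned with the deposited scaling (-0.030), with centred arrays (-0.11) and without CD133+ replicate 1 (-0.019). TOP2A, the topoisomerase that untangles chromosomes, had 10.08 and 9.89 against 9.96 and 9.92 and a difference of 0.042 (SE 0.10). Its sign turned with the deposited scaling (-0.0090), with centred arrays (-0.088), without CD133+ replicate 1 (-0.054) and with the mean of probe sets (-0.13), and its second probe set was at -0.46 (SE 0.35). The 95% intervals ran from -0.21 to 0.31 for MKI67 and from -0.19 to 0.27 for TOP2A.

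Genes of the kinetochore, the structure that ties chromosomes to the spindle, did not share a direction. NDC80, which grips microtubules, had signals of 8.95 and 8.92 in CD133+ cells, against 8.66 and 8.35 in CD133- cells and a difference of 0.43 (SE 0.14, adjusted p = 0.132 by limma). NUF2, its direct partner in the same complex, had 7.99 and 7.74 in CD133+ cells, against 8.44 and 8.03 in CD133- cells and a difference of -0.37 (SE 0.17, adjusted p = 0.277 by limma). The clones did not overlap for either gene, on opposite sides. Without CD133- replicate 1 NUF2 was at -0.17, and without CD133- replicate 2 NDC80 was at 0.27. NDC80 minus NUF2 within an array was 0.96 and 1.18 in the CD133+ clone and 0.23 and 0.32 in the CD133- clone. Because the genes separated on opposite sides, this contrast had to separate as well. CENPA, the centromeric histone, was at 0.17 (SE 0.14), CENPF at 0.12 (SE 0.10) and the motor CENPE at -0.34 (SE 0.23). For CENPF, both other probe sets had the opposite sign.

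The chromosomal passenger genes AURKB, BIRC5 and CDCA8, whose products form 1 complex that corrects spindle attachments, all had both CD133+ arrays above both CD133- arrays, as 30.4% of all genes did, with differences from 0.14 to 0.26 and limma adjusted p from 0.239 to 0.542. With centred arrays AURKB turned to -0.036. Its dimmer probe set was at -0.11 (SE 0.23), and the mean of its probe sets at 0.018. BIRC5, survivin, had the largest difference of the 3 genes, with 9.88 and 9.64 against 9.46 and 9.55 and 0.26 (SE 0.11). All 4 of its probe sets had this sign, and the second brightest was at 0.73 (SE 0.14, adjusted p = 0.0833 by limma) in the fit of all named probe sets. Among the mitotic kinases, AURKA was at 0.13 (SE 0.093), PLK1 at -0.050 (SE 0.20) and PLK4, which starts centriole copying, at -0.29 (SE 0.24). The spindle motors KIF11 and KIF20A were at -0.039 (SE 0.14) and 0.025 (SE 0.11), the spindle assembly factor TPX2 at 0.18 (SE 0.13), and the ubiquitin-conjugating enzyme UBE2C at 0.15 (SE 0.13). The clones overlapped in all of these genes except AURKA. Altogether 2 of the 23 G2 and mitosis genes fell and 21 did not pass, or 8.70% lower against 2.34% of all genes. Of the 23 signs 15 were positive (65.2%), against 58.5% of all genes.

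No replication gene passed, and most had a negative sign. Of 16, 13 were negative and 3 positive, against 41.5% negative over all genes tested, and 9 had both CD133+ arrays below both CD133- arrays (56.3%), against 21.2% of all genes. In 1 gene, or 6.25%, both lay above, against 30.4%. The median difference was -0.098, which ran from -0.12 to -0.081 when each array was left out in turn, with 11 to 14 negative signs.

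The sliding clamp PCNA, which holds DNA polymerase on its template, had signals of 11.73 and 11.74 in CD133+ cells, against 12.07 and 11.94 in CD133- cells. The groups did not overlap, and the difference was -0.27 (SE 0.078, adjusted p = 0.109 by limma), the lowest adjusted p of the replication genes. All 6 subunits of the MCM2 to MCM7 ring, the helicase that opens DNA, had a negative sign, from -0.29 to -0.0072, as 41.5% of all genes did. In 4 of them both CD133+ arrays lay below both CD133- arrays, as in 21.2% of all genes. All 6 stayed negative under each scaling, while MCM4 and MCM7 turned positive without CD133+ replicate 1 (0.048 and 0.042) and without CD133- replicate 2 (0.042 and 0.026). A dimmer probe set had a positive sign for MCM4 (0.028) and for MCM5 (0.040). MCM2 had 9.70 and 9.82 in CD133+ cells, against 10.08 and 10.02 in CD133- cells, with a difference of -0.29 (SE 0.095, adjusted p = 0.144 by limma). At the other end, MCM7 had 10.61 and 10.71 against 10.63 and 10.70 and a difference of -0.0072 (SE 0.086), well inside its error.

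Origin licensing genes, which load the helicase in G1, varied in sign. ORC1, a subunit of the origin recognition complex, was at -0.27 (SE 0.18) with signals of 6.58 and 6.66 against 6.99 and 6.79, ORC6 at 0.13 (SE 0.12) and the loader CDC6 at -0.089 (SE 0.10). CDT1, the licensing factor, had signals of 8.01 and 8.24 in CD133+ cells, against 7.66 and 7.9997 in CD133- cells, and a difference of 0.30 (SE 0.16). It was the 1 replication gene with both CD133+ arrays above, although its second probe set had the other sign. The difference was 0.13 without CD133- replicate 1 and 0.056 with centred arrays. GMNN, geminin, which blocks CDT1 after licensing, was at -0.043 (SE 0.087). The firing factors CDC45 and MCM10 were at -0.20 (SE 0.13) and -0.11 (SE 0.17). For MCM10 the second probe set was at 0.37 (SE 0.18) and the third at -0.48 (SE 0.20). The ribonucleotide reductase subunits, which make the building blocks of DNA, gave 0.042 (SE 0.083) for RRM1 and -0.24 (SE 0.11) for RRM2. For RRM2 the signals were 10.54 and 10.81 against 10.95 and 10.88, and its second probe set, at 0.21, had the opposite sign. Without CD133+ replicate 1 RRM2 was at -0.10, and without CD133- replicate 1 ORC1 was at -0.17.

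None of the 16 G1/S regulators passed, 8 being positive and 8 negative, with a median of -0.028. Among the D-type cyclins, which sense growth signals, CCND1 had 10.87 and 10.68 in CD133+ cells, against 11.10 and 10.95 in CD133- cells, a difference of -0.26 (SE 0.099, adjusted p = 0.193 by limma), while CCND2 was at 0.025 (SE 0.17) and CCND3 at 0.011 (SE 0.12). CCND2, with a mean signal of 3.95, lay just above the filter at 3.75. Both CD133+ arrays lay below for CCND1, which was at -0.16 without CD133+ replicate 2, and the clones overlapped for CCND2 and CCND3. Their kinases CDK4 and CDK6 were at -0.15 (SE 0.080) and -0.067 (SE 0.095), with signals of 10.83 and 10.81 against 10.99 and 10.94 and 10.29 and 10.23 against 10.41 and 10.24.

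The E-type cyclins, which bind CDK2 at the start of S phase, differed from each other. CCNE2 had the largest difference of all members by brightest probe set, -0.68 (SE 0.26, adjusted p = 0.197 by limma). Its dimmer probe set was at -0.052 (SE 0.20), and the mean of its probe sets at -0.36. The signals of the brightest were 5.25 and 5.30 in CD133+ cells, against 6.29 and 5.61 in CD133- cells, so CD133- replicate 1 stood 0.68 above its replicate. Without that array the difference was -0.34, without CD133- replicate 2 it was -1.01, and it did not pass in either case. CCNE1 had 5.48 and 5.79 against 5.48 and 5.76 and a difference of 0.017 (SE 0.23), and CDK2 had 8.82 and 8.87 against 8.74 and 8.80 and 0.071 (SE 0.11).

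E2F factors pointed both ways. E2F1, an activator, had 7.78 and 7.92 in CD133+ cells, against 7.13 and 7.76 in CD133- cells and a difference of 0.40 (SE 0.21), and E2F2, also an activator, 6.78 and 6.76 against 6.18 and 6.42 and 0.47 (SE 0.19). E2F3 lay on the other side, with 7.78 and 7.67 against 8.07 and 7.99 and -0.31 (SE 0.14), a sign that 1 of its 2 probe sets did not share. Within an array, E2F1 minus E2F3 was 0.0032 and 0.25 in the CD133+ clone and -0.94 and -0.23 in the CD133- clone. Both genes separated the clones, on opposite sides, so this contrast had to separate too. Without CD133- replicate 1 the difference of E2F1 was 0.087. The retinoblastoma gene RB1, which holds E2F in check, had 8.53 and 8.59 against 8.97 and 8.66 and -0.26 (SE 0.14), or -0.10 without CD133- replicate 1. Its dimmer probe set was at 0.14 (SE 0.17). Its relative RBL1 had 4.80 and 4.79 against 5.66 and 4.81 and -0.44 (SE 0.29), which became -0.014 when CD133- replicate 1 was left out and -0.87 when CD133- replicate 2 was. MYC, a driver of growth and G1 exit, had 13.08 and 12.82 in CD133+ cells, against 13.17 and 13.13 in CD133- cells and a difference of -0.20 (SE 0.092, adjusted p = 0.266 by limma), which passed without CD133+ replicate 1 (-0.33, adjusted p = 0.0294) and was -0.070 without CD133+ replicate 2 (adjusted p = 0.760). MYBL2, which activates mitotic genes, was at 0.23 (SE 0.11).

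The measured CDK inhibitors did not differ beyond their spread. CDKN1A, the p53 target p21, had 8.65 and 8.75 in CD133+ cells, against 8.51 and 8.75 in CD133- cells and a difference of 0.069 (SE 0.13, adjusted p = 0.798 by limma). CDKN1B, p27, which restrains cyclin E with CDK2, had 9.36 and 9.48 in CD133+ cells, against 9.53 and 9.37 in CD133- cells and -0.031 (SE 0.11, adjusted p = 0.902 by limma). Both overlapped between the clones, and the 95% intervals ran from -0.23 to 0.37 and from -0.28 to 0.22.

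The medians of the lists, and of all genes, depended on the scaling. The median of all genes tested was 0.058 after quantile normalization, 0.028 in the values as deposited and -0.050 with each array centred on its median. In the same order the replication median was -0.098, -0.19 and -0.27, below that of all genes each time. The G2 and mitosis median was 0.051, -0.014 and -0.093, and its count of positive signs 15, 10 and 7 of 23, so its sign turned with the scaling. On single arrays the median deviation of the replication genes from their means was -0.078 and -0.0042 in the CD133+ clone and 0.031 and 0.065 in the CD133- clone. For the G2 and mitosis genes it was 0.083 and -0.035 against -0.051 and -0.019, which overlap.

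**Figure D3:**
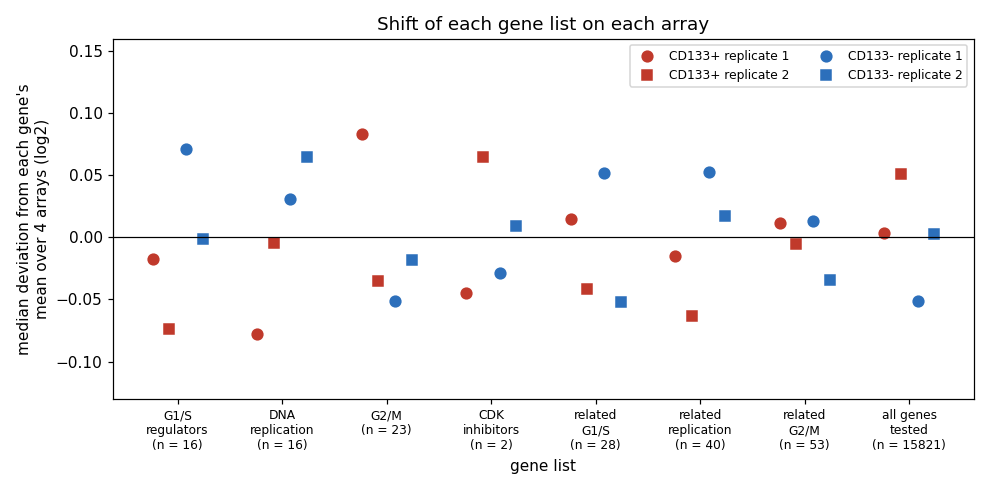
Median deviation, on each array, of the genes of a list from their own mean over 4 arrays, in log2 units, with the number of genes under each list; circles are replicate 1 and squares replicate 2. The replication genes lie between -0.078 and -0.0042 on the CD133+ arrays and between 0.031 and 0.065 on the CD133- arrays, and the G2 and mitosis genes overlap.

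Other genes of the same pathway, 121 in 3 lists, gave 6 that fell and 0 that rose, or 4.96%, against 3.65% of all genes called and 2.34% lower. By list the share was 7.14% for G1/S, 5% for replication and 3.77% for G2 and mitosis. Of 28 related G1/S genes, 2 fell and 26 did not pass. These were CDK7 and CCNH, kinase and cyclin of the complex that switches on CDK1 and CDK2. CDK7 had 10.98 and 11.08 in CD133+ cells, against 11.51 and 11.51 in CD133- cells, a difference of -0.48 (SE 0.080, adjusted p = 0.0212 by limma). CCNH had 9.72 and 9.86 in CD133+ cells, against 10.56 and 10.59 in CD133- cells, a difference of -0.78 (SE 0.093, adjusted p = 0.00936 by limma). The third subunit, MNAT1, was at 0.19 (SE 0.11) and did not pass.

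Of 40 related replication genes, 2 fell, the origin recognition subunits ORC2, at -0.75 (SE 0.12, adjusted p = 0.0212 by limma), and ORC4, at -0.63 (SE 0.10, adjusted p = 0.0209 by limma). Their signals were 7.86 and 7.80 against 8.59 and 8.57 for ORC2 and 9.17 and 9.31 against 9.82 and 9.93 for ORC4, and the clones were separate in both. The median of this list was -0.12 with 27 of 40 negative (67.5%, against 41.5% of all genes), and other subunits such as ORC3, at 0.10 (SE 0.12), and ORC5, at -0.24 (SE 0.17), did not pass. Of 53 related G2 and mitosis genes, 2 fell, both of the inner kinetochore. CENPK had 7.95 and 7.97 in CD133+ cells, against 9.24 and 9.03 in CD133- cells, a difference of -1.17 (SE 0.13, adjusted p = 0.00880 by limma), and CENPH had 7.95 and 8.15 against 8.68 and 9.18, a difference of -0.88 (SE 0.18, adjusted p = 0.0382 by limma). CENPI, whose product joins them in 1 complex, was at 0.32 (SE 0.20), with low mean signals of 4.84 and 4.52. Only 1 of its 4 probe sets had this sign, and the lowest was at -0.68, so its direction is not settled. Without CD133- replicate 1, CCNH, CENPH and CENPK passed and CDK7, ORC2 and ORC4 did not (adjusted p from 0.0917 to 0.140). Without CD133- replicate 2, CCNH and CENPK passed and the other 4 did not (0.0650 to 0.105). None of the 6 passed with a variance prior that ignores level (0.0613 to 0.150), and CENPH did not with the mean of probe sets (0.0681).

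Several of the genes that fell lay near each other on the chromosomes. Of the 8 that fell among the 178 members and related genes, 5 are on chromosome 5 (CCNB1, CDK7, CCNH, CENPH and CENPK), 2 on chromosome 2 (ORC2 and ORC4) and 1 on chromosome 20 (CDC25B). Of all 178, 11 lie on chromosome 5, 11 on chromosome 2 and 9 on chromosome 20. CENPH is the next tested gene after CCNB1, and CDK7 the third. Among the 20 tested genes nearest to CCNB1, 10 on each side, 19 had a negative sign, against 41.5% of all genes. Of these 20, 8 fell, against 2.34% of all genes, and 0 rose, and their median difference was -0.74. CCNB1, at -0.51, lay nearer to 0 than that median. No other member had neighbours with so low a median. Over all 57 members these medians ran from -0.74 to 0.27, with a middle value of 0.053.

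CDC25B and PCNA share a stretch of chromosome 20 and some of the same neighbours. The 20 tested genes around CDC25B had a median of -0.27, with 14 negative, 1 lower and 0 higher, and those around PCNA had -0.34, with 17 negative, 4 lower and 0 higher. For the related genes that fell, the neighbour medians were -0.60 for CDK7 and CENPH, -0.64 for CENPK, -0.54 for CCNH and -0.59 for ORC2, and -0.076 for ORC4. CDK7 and CENPH are themselves neighbours of CCNB1, so the medians of these genes rest on many of the same neighbours. Chromosome 5 as a whole had a median of -0.019 over 682 tested genes, with 59 lower and 2 higher, chromosome 2 had -0.063 over 1035, with 123 and 4, and chromosome 20 had 0.091 over 482, with 18 and 8. The part of position in the differences of the members was not tested. CCNB2, on chromosome 15, had neighbours with a median of -0.080.

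**Figure D4:**
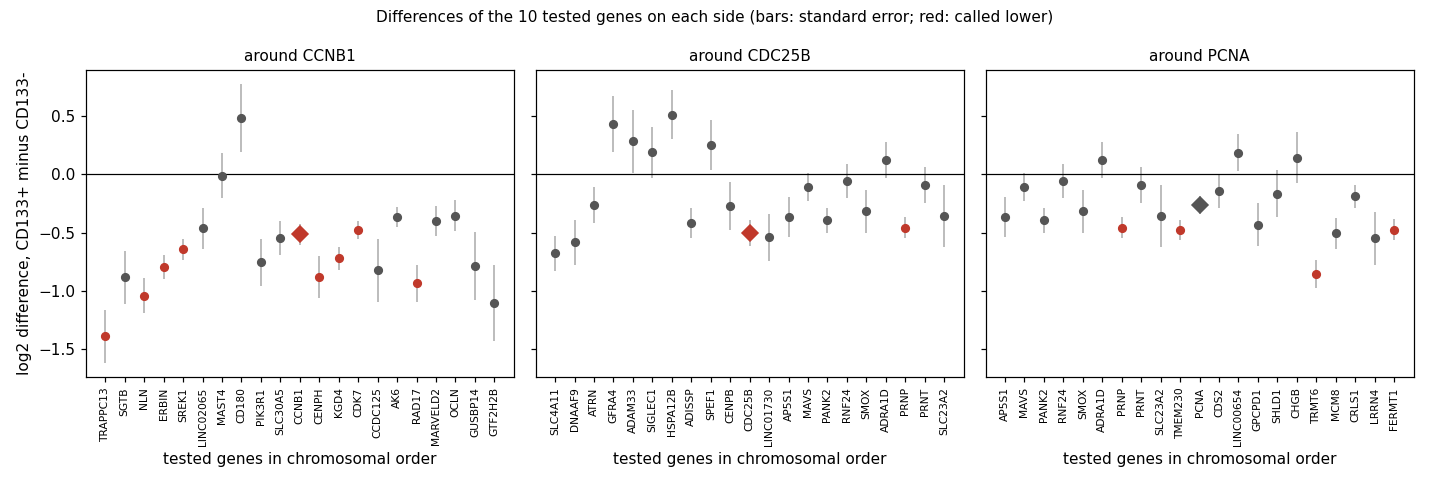
Log2 differences (CD133+ minus CD133-, bars are standard errors) of the 10 tested genes on each side of CCNB1, CDC25B and PCNA in chromosomal order, with the member as a diamond and genes that were called lower in red. Around CCNB1, 19 of 20 neighbours are negative with a median of -0.74; around CDC25B and PCNA the medians are -0.27 and -0.34.

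Several probe sets of a member did not always agree. There were 34 members with more than 1 probe set, up to 7, and in 17 of them every probe set had the sign of the brightest while in 17 at least 1 had the other sign. CCNB1, CCNB2, BIRC5, MKI67 and E2F2 were among those in full agreement. CDC25A showed the widest split: its brightest probe set was at 0.27, and its dimmest at -0.99 (SE 0.32), with signals of 4.26 and 4.15 against 5.68 and 4.71. With the mean of all probe sets of a gene, CCNB1 was the only member to pass (-0.90, adjusted p = 0.0190).

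**Figure D5:**
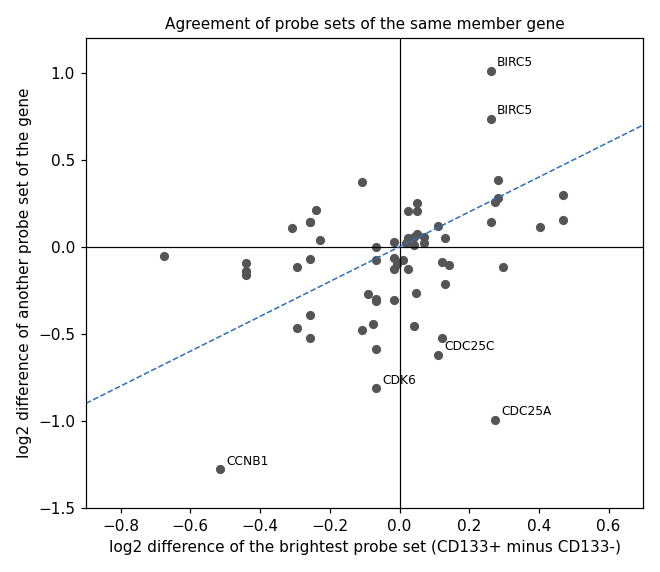
Log2 difference (CD133+ minus CD133-) of each further probe set of a member against that of its brightest probe set, with names for differences beyond 0.6; the dashed line marks equal values. CCNB1 lies at the lower left, where both probe sets are negative, and CDC25A at the lower right, where they disagree.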

How the data were processed

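RNA of sorted SW620 clone cells was measured on 4 Affymetrix arrays, 2 per clone. The authors deposited log2 signals per probe set, as the range of values shows, from Affymetrix Expression Console per the submitters' processing notes. Their method of summarisation is not given in the sources used here. Because array medians differed by 0.144, the values were quantile normalized after removing 62 control probe sets. Of 54675 probe sets, 41091 named 1 gene in the platform annotation. Each gene took its brightest probe set, and a filter at a log2 signal of 3.75 removed 3956 genes, the dimmest 20%, leaving 15821. limma 3.58.1 (R 4.3.3; lmFit, eBayes with a trend) compared the groups, with Benjamini-Hochberg adjustment over all 15821 genes. Errors after ± are SDs over 2 arrays. Gene order came from the RefSeq table (GRCh38.p14), and neighbours are the 10 tested genes on each side. Python 3.11.15 was used for positions, motifs and figures. The code of the fit was run on simulated data drawn under the variance model of limma itself. That run cannot show whether these arrays follow the model. Having only 4 arrays limits the precision.

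The members, their roles, the related genes and the markers were chosen with earlier results of these data known. Values on every array were given for members that passed, for the 3 largest differences of each role and for a list of well-known members. Neighbour medians, within-array contrasts and the array values of BIRC5, E2F3, MCM7 and NUF2 were chosen after the values were seen. So were the array values of the dimmer probe set of CCNB1 and the dimmest of CDC25A. Alternatives were the scaling, the filter, the variance model, the choice of probe sets, a replicate block, a stricter threshold and leaving out each array. A group left with 1 array was taken to have the spread of the other.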

Additional observations from a re-analysis of the deposited data

How the results depend on the processing

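The main comparison called 577 genes, 2 of them members, both lower. With the deposited scaling the median difference was -0.13 for the G1/S and replication members together, -0.014 for the G2 and mitosis members and -0.064 for the CDK inhibitors, and with centred arrays -0.21, -0.093 and -0.14, against -0.082, 0.051 and 0.019. Of all calls 35.9% were higher, against 21.1% as deposited and 11.4% centred. With no filter on level 1 member was lower. Without a trend of variance 12 genes and 0 members passed. With the mean of all probe sets 247 genes and 1 member passed, and the G2 and mitosis median was -0.039. At an adjusted p under 0.01, 50 genes and 0 members passed. Leaving out each array in turn gave 124 to 706 genes (124 without CD133- replicate 1), 0 to 3 members lower, and medians of -0.11 to -0.085 for the G1/S and replication members. Of 57 members, 31 kept their sign in all settings and 26 changed it in at least 1. The cause was not tested.

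The labels number the replicates of both clones, and the replicate differences of the clones correlated across genes (r = 0.429), but 2 pairs do not settle a pairing. With the replicate number as a block 3030 genes were called, 19.2% of all genes tested, with 1566 higher and 1464 lower. Of the 57 members, 2 were called higher (CCNB2 and NDC80) and 8 lower (CCNB1, CCND1, CCNE2, CDC25B, CDK1, MCM2, NUF2 and PCNA).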

Other observations

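Among the neighbours of CCNB1 and PCNA, RAD17 and MCM8 act in DNA damage signalling and repair, and both were chosen after their values were seen. RAD17, which loads the checkpoint clamp on damaged DNA, is the 6th tested gene after CCNB1, and its difference was -0.93 (SE 0.16, adjusted p = 0.0225 by limma). MCM8, a helicase of DNA repair near PCNA, did not pass, at -0.51 (SE 0.14, adjusted p = 0.0853 by limma).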
